A study of Mus musculus with 6 samples.

Results

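The SoxB and SoxC transcription factors comprised 8 genes, Sox1, Sox2 and Sox3 (SoxB1), Sox14 and Sox21 (SoxB2), and Sox4, Sox11 and Sox12 (SoxC). Their members on the array were all non-control probe sets annotated with exactly 1 of these symbols, 25 of 45037 probe sets (8 of 18193 named genes): 5 for SoxB1, 3 for SoxB2 and 17 for SoxC. Expression was measured on Affymetrix Mouse MOE430 2.0 arrays in the ventral telencephalon (ventral forebrain in the series design) of mouse embryos at stage E13.5 (days of embryonic development). The compared groups were Olig2-/- embryos, which lack the basic helix-loop-helix factor Olig2, and Olig2+/+ embryos, and the labels name no further allele or treatment. RNA from 3 brains was pooled for each array. The sample information states 5 replicates, but the series holds 3 arrays per genotype. Those analysed were numbered 2, 4 and 5 for the knockout and 1, 4 and 5 for the wild type. The labels give neither the construction of the Olig2 allele nor the litters.

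Sox proteins bind DNA through a high mobility group (HMG) box, and the groups differ mainly outside it. SoxB1 factors keep neural progenitors undifferentiated and are highest in the ventricular zone. SoxB2 factors act largely as repressors on similar sites, and Sox21 promotes the exit from the progenitor state. SoxC factors act later, in committed precursors and young neurons, where they activate neuronal genes such as Tubb3. The contrast of SoxB1 with SoxC is therefore a contrast of progenitor with neuronal Sox genes. Olig2 itself is made by ventral progenitors and binds E-boxes, the CANNTG sites of helix-loop-helix factors.

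No SoxB or SoxC probe set passed the adjusted threshold of 0.05, and neither did any other probe set (0% of 22565 tested in limma). The 3 SoxB1 genes lay within 0.18 of equal on the log2 scale at their brightest probe sets. The 3 widest differences among the members were in SoxC. A pair of Sox4 probe sets was lower in the knockout, by 0.54 and 0.67, without overlap between the genotypes, whereas the brightest Sox4 probe set differed by 0.02. A Sox11 probe set differed by -0.55, with overlapping groups. Sox21 was lower by 0.30 at one of its probe sets and by 0.03 at the other. In the mean over genes, SoxB1 differed by 0.03 and SoxC by -0.17, and SoxB1 minus SoxC by 0.20, which was 0.10 without wild-type replicate 1.

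The targeted gene was checked first. Olig2 read 7.48, 7.53 and 7.76 in the knockout and 8.20, 8.22 and 8.42 in the wild type (log2), so the order of the groups matched the labels. The place of that probe set relative to the change in the Olig2 allele was not analysed here, so its signal need not come from functional transcript. Array medians lay between 3.14 and 3.20. Of 10 genes fixed as marks of the ventral telencephalon, 8 had a named probe set and 7 were above the filter on dim probe sets, with list means of 8.45 to 8.55 in the knockout and 8.41 to 8.64 in the wild type. Of these, Gsx2, a homeobox gene of ventral progenitors, had the lowest p and was 0.54 higher in the knockout (SE 0.12, limma's adjusted p = 0.511), without overlap. Lhx6, of interneurons from the medial ganglionic eminence, differed by -0.33 (SE 0.18), without overlap, and by 0.02 at a second probe set, and Lhx8 and Dlx1 differed by 0.13 (SE 0.09) and -0.12 (SE 0.11), with overlap. Nkx2-1, a mark of the medial ganglionic eminence, was below the filter. Thalamic genes were also present, and all 6 on the list were lower in the knockout, with list means of 6.64 to 7.21 against 7.57 to 8.04. Of all genes, at the brightest kept probe set, 50.6% were lower, 7.96% without overlap. Without overlap were 4 of the 6: Gbx2 at -1.38 (SE 0.25), Rora at -1.29 (SE 0.30), Tcf7l2 at -0.69 (SE 0.22) and Foxp2 at -0.56 (SE 0.16). Limma's adjusted p was 0.511 for each of these thalamic genes. The 4 measured pallial genes were all higher, at 7.01 to 7.19 against 6.71 to 6.87. Tbr1 and Neurod6 differed by 0.45 and 0.52, without overlap. Neurod2 and Emx2 differed by 0.19 (-0.05 at a second Neurod2 probe set) and 0.01, with overlap. Limma's adjusted p for these pallial genes was 0.511 to 0.982. In bulk tissue, fewer cells of a type and less RNA per cell cannot be told apart. The part of these regional differences, none past the adjusted threshold, in the Sox values was not tested.

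A probe set was tested if it lay above its array's median on at least 3 of the 6 arrays, whatever the genotype. Of the 25 member probe sets 20 were kept, 4 of SoxB1, 2 of SoxB2 and 14 of SoxC, and 8 of the 20 were higher and 12 lower in the knockout, where 49.3% of all kept probe sets were lower. Without wild-type replicate 1, an array that stood apart for neuronal and cell cycle genes, 10 were higher and 10 lower. Both counts of higher members include the dim Sox1 probe set 1422205_at, which passed the filter only through the knockout arrays. The median difference over all 6 arrays was -0.04, against 0.00 over all 22565 kept probe sets. At unadjusted p below 0.05 in limma there were 3 members, Sox21 once and Sox4 at 2 probe sets, all lower in the knockout. Of all kept probe sets 9.4% were below that p, 4.42% lower and 4.98% higher. The groups did not overlap for 2 members, both lower, where 7.25% of all kept probe sets were lower without overlap and 8.96% higher. The 5 member probe sets that were not kept lay near the floor of the values, at 2.27 to 2.64: 1 each for Sox14, Sox3 and Sox12 and 2 for Sox4. All p-values rest on the variation among 6 pools, and nothing says how far that variation is technical; so few arrays limit the precision of every value.

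**Figure D1:**
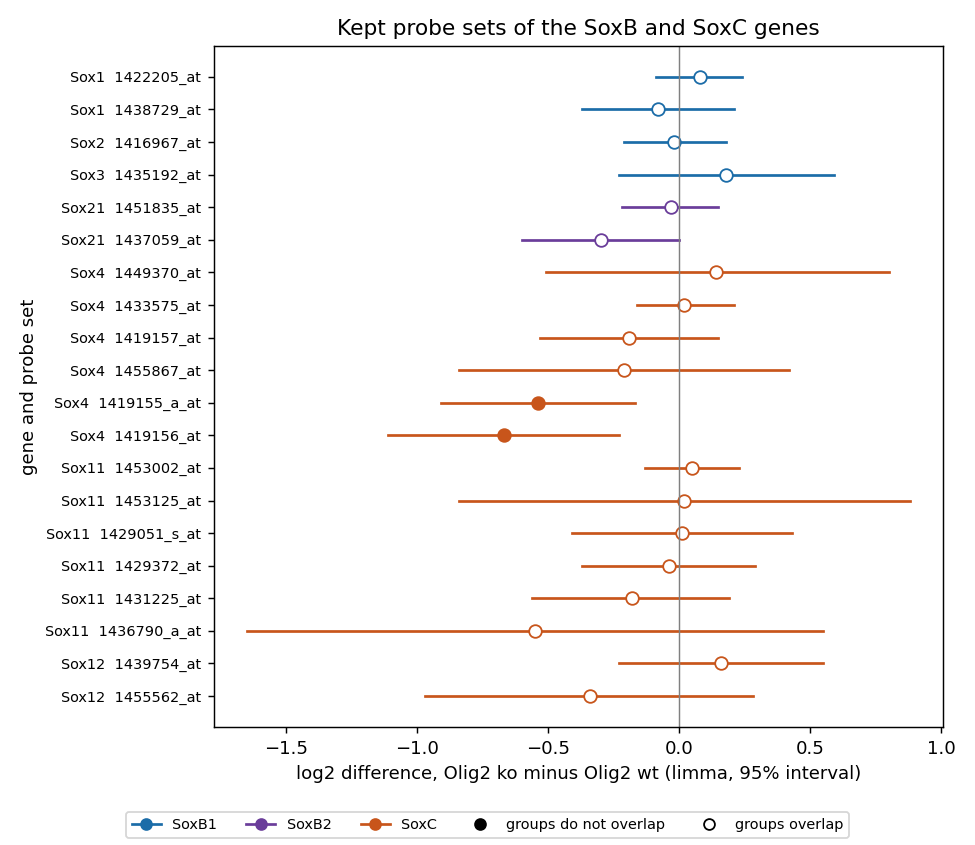
The 20 kept probe sets of SoxB1, SoxB2 and SoxC genes are drawn with their log2 difference (Olig2 ko minus Olig2 wt, horizontal axis) and limma's 95% interval. Filled points mark the 2 Sox4 probe sets, at -0.54 and -0.67, whose groups did not overlap.

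Among the SoxB1 genes, Sox2, which maintains neural and pluripotent stem cells, hardly varied. Its single probe set (1416967_at) read 12.62, 12.48 and 12.69 in the knockout and 12.62, 12.64 and 12.58 in the wild type (log2). The groups overlapped, and all 6 arrays lay within 0.21 of each other. The log2 difference was -0.02 (SE 0.08, 95% interval -0.21 to 0.18, limma's adjusted p = 0.939). The 371 kept probe sets with a mean above 12 had a median absolute difference of 0.061, against 0.133 for all kept probe sets, though single ones differed by more, such as Mapt by -0.56. The Sox2 gene (chr3:34649995-34652461 in GRCm38.p6) lies inside the long noncoding gene Sox2ot (chr3:34560381-34677993). Sox2ot read 8.20, 8.72 and 8.57 in the knockout and 8.27, 8.61 and 7.05 in the wild type. Wild-type replicate 5 stood apart there, and the groups overlapped (difference 0.52, SE 0.42, limma's adjusted p = 0.61).

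Sox1, expressed almost only in neural progenitors during embryogenesis, also overlapped between the genotypes. The bright probe set (1438729_at) read 9.51, 9.37 and 9.11 in the knockout and 9.48, 9.41 and 9.33 in the wild type. Knockout replicate 5 was the lowest of all 6 arrays and knockout replicate 2 the highest. The difference was -0.08 (SE 0.12, 95% interval -0.37 to 0.21, limma's adjusted p = 0.776), and 0.03 without knockout replicate 5. A second probe set (1422205_at) lay at 3.11 to 3.28, next to the array medians, where the values hardly resolve a difference. It read 3.20, 3.17 and 3.28 in the knockout and 3.14, 3.17 and 3.11 in the wild type. Only the knockout arrays lay above their medians, so it passed the filter through the genotype where it was higher. Its difference of 0.08 (SE 0.07) therefore carries no weight as a sign of direction. 

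Sox3, the X-linked SoxB1 gene that acts in the hypothalamus and in progenitors, showed the largest SoxB1 difference. Its kept probe set (1435192_at) read 7.89, 8.11 and 7.55 in the knockout and 7.49, 7.80 and 7.73 in the wild type. The knockout arrays spread over 0.56, more than the difference of 0.18 between the genotypes (SE 0.17, 95% interval -0.23 to 0.59, limma's adjusted p = 0.648). Without knockout replicate 4, the highest array, the difference was 0.05, and without knockout replicate 5 it was 0.33. The second Sox3 probe set was not kept and read 2.53 on 5 of the arrays and 2.64 on knockout replicate 4.

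Of the SoxB2 genes, Sox21 was measured at 2 probe sets that did not move alike. The brighter one (1437059_at) read 8.16, 7.93 and 7.99 in the knockout and 8.48, 8.12 and 8.38 in the wild type. The groups overlapped by a single pair, since wild-type replicate 4 lay just below knockout replicate 2. The knockout level was 1.23-fold lower, at -0.30 on the log2 scale (SE 0.12, 95% interval -0.60 to 0.00), short of the threshold (limma's adjusted p = 0.511). It ranged from -0.41 without wild-type replicate 4 to -0.22 without wild-type replicate 1. The other probe set (1451835_at) read 7.23, 7.20 and 7.09 in the knockout and 7.27, 7.16 and 7.18 in the wild type. Their means were 0.03 apart, lower in the knockout (SE 0.07, 95% interval of the difference -0.22 to 0.15, limma's adjusted p = 0.863). The mean of both Sox21 probe sets differed by -0.17 (SE 0.09, limma's adjusted p = 0.536).

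Sox14, a SoxB2 gene of GABAergic neurons in the rostral thalamus and pretectum, read 2.27 on all 6 arrays. That is the floor of the GCRMA values, so no difference could be measured. Of 7 genes listed for the same region, 6 had a named probe set, and 4 of those (Gata2, Gata3, Tal1 and Tal2) were below the filter too. The remaining pair, Nkx2-2 and Lhx1, differed by -0.30 (SE 0.22) and -0.24 (SE 0.28; -0.37 at a second Lhx1 probe set), with overlapping groups and limma's adjusted p = 0.584 and 0.714.

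Within SoxC, Sox4 carried the widest disagreement between probe sets. The upstream sequences of Sox4 and of its SoxC relative Sox11 are shown beside that of Sox21, since Sox4 and Sox21 were the members with probe sets below an unadjusted p of 0.05, and Olig2 acts on E-boxes. Each run holds the 250 bases before the RefSeq start of the gene (GRCm38.p6), 5′ to 3′ on the minus strand, at chr13:28953700-28953949 for Sox4, chr12:27342719-27342968 for Sox11 and chr14:118237031-118237280 for Sox21. Capitals mark CANNTG, which reads the same on both strands.
Sox4: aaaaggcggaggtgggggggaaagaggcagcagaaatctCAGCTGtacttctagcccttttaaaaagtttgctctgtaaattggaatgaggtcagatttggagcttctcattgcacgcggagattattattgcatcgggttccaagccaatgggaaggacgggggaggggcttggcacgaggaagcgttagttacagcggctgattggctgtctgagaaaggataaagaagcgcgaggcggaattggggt
Sox11: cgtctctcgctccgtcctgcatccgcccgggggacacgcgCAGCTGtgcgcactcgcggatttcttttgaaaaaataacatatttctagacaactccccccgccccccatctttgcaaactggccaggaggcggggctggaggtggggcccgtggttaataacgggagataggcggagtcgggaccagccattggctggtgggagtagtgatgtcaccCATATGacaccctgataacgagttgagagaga
Sox21: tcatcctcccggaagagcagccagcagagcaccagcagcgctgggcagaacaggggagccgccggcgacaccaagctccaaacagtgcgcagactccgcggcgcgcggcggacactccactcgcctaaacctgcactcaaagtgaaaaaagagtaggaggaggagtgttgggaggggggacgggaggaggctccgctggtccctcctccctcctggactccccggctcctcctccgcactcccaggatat
Sox4 held 1 match and Sox11 held 2 in these windows, and Sox21 held none. The Sox4 match and 1 of the Sox11 matches had the form CAGCTG, and the other Sox11 match was CATATG. Of the 7 members with a window (all but Sox3), 4 held CANNTG and 2 held CAGCTG. Among all 32851 RefSeq windows of the same length, 66.2% held CANNTG and 13% held CAGCTG. The Sox motif ACAAAG, searched on both strands, was found in 1 member window, that of Sox2, and in 16.5% of all windows, while ACAATG was in 0 member windows and 10.7% of all. A match is a string of letters, and binding was not measured in these data.

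Sox4, which promotes survival and differentiation of young neurons, had 8 probe sets, 6 of them kept. The probe set 1419156_at read 10.22, 9.75 and 9.71 in the knockout and 10.80, 10.41 and 10.48 in the wild type. The knockout arrays were all below the wild-type arrays, with knockout replicate 2 the closest. The knockout level was 1.59-fold lower, at -0.67 on the log2 scale (SE 0.18, 95% interval -1.11 to -0.23, limma's adjusted p = 0.511). The probe set 1419155_a_at followed the same order of groups, at 10.09, 9.78 and 9.62 in the knockout against 10.55, 10.30 and 10.26 in the wild type. The level there was 1.46-fold lower in the knockout, at -0.54 on the log2 scale (SE 0.15, 95% interval -0.91 to -0.17, limma's adjusted p = 0.511). Leaving out each array in turn gave -0.83 to -0.55 for the first and -0.67 to -0.44 for the second, none of them past the adjusted threshold, with the lowest adjusted p of 0.187 without knockout replicate 2.

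The other 4 kept Sox4 probe sets differed by less, 2 of them lower and 2 higher in the knockout. The annotation names the same source sequence for 4 Sox4 probe sets, the pair above, 1419157_at and 1449370_at, so these 4 are not independent measurements of the gene. On 1419157_at the knockout read 10.24, 9.89 and 9.86 and the wild type 10.05, 10.34 and 10.15, with a difference of -0.19 (SE 0.14, 95% interval -0.53 to 0.15). On 1449370_at the difference was 0.14 (SE 0.27, 95% interval -0.51 to 0.80), with wild-type replicate 5 lowest, at 7.73 against 8.11 to 8.61 on the others. The difference there was -0.13 without that array and 0.30 without knockout replicate 5. The dim probe set 1455867_at, at 4.28 to 5.18, differed by -0.21 (SE 0.26, 95% interval -0.84 to 0.42), and by -0.47 without knockout replicate 2 and -0.02 without knockout replicate 5. The brightest, 1433575_at, read 13.20, 13.12 and 13.31 in the knockout and 13.18, 13.19 and 13.19 in the wild type, a difference of 0.02 (SE 0.07, 95% interval -0.16 to 0.21). All 4 overlapped between the genotypes, and limma's adjusted p was 0.582 to 0.9. The brightest probe set has a mean above 12, where the median absolute difference was 0.061, against 0.133 for all kept probe sets. Its interval includes neither estimate of the lower pair, nor do those of 1419157_at and 1449370_at, while that of 1455867_at includes both. The intervals of the pair, -1.11 to -0.23 and -0.91 to -0.17, end short of that of the brightest. They overlap those of 1419157_at, 1449370_at and 1455867_at. The array therefore gives no single value for Sox4. Averaged over its 6 kept probe sets, Sox4 differed by -0.24 (SE 0.13, 95% interval -0.56 to 0.08, limma's adjusted p = 0.539). The position of each probe set along the transcript was not analysed here.

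**Figure D2:**
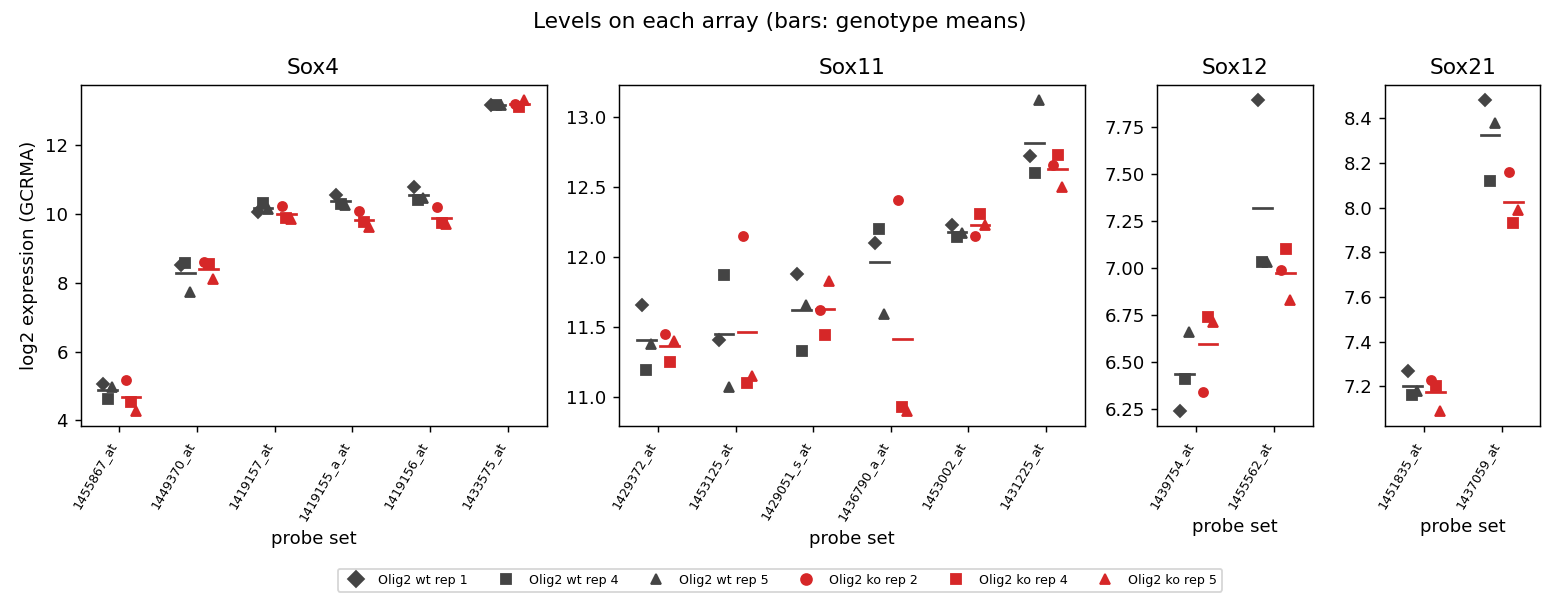
Log2 levels of the kept probe sets of Sox4, Sox11, Sox12 and Sox21 are plotted for each array, with wild-type arrays in grey, knockout arrays in red and bars at the genotype means. The knockout points lie below all wild-type points at 1419155_a_at and 1419156_at of Sox4, and wild-type replicate 1 stands apart at 7.89 on Sox12 probe set 1455562_at.

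Sox11, which acts with Sox4 in neuronal differentiation, had 6 probe sets, all kept. Of these, 3 were higher and 3 lower in the knockout, from -0.55 to 0.05. The steadiest, 1453002_at, read 12.15, 12.31 and 12.23 in the knockout and 12.23, 12.14 and 12.17 in the wild type, a difference of 0.05 (SE 0.07, 95% interval -0.13 to 0.23, limma's adjusted p = 0.774). The brightest, 1431225_at, read 12.66, 12.73 and 12.50 against 12.72, 12.60 and 13.12. Wild-type replicate 5 was the high array there, and the difference of -0.18 (SE 0.15) was -0.03 without it. The probe sets 1429372_at and 1429051_s_at differed by -0.04 (SE 0.14) and 0.01 (SE 0.17). The annotation gives 1 source sequence for 1429051_s_at and 1453002_at, and another for 1429372_at and 1453125_at.

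At 2 Sox11 probe sets, single arrays moved by far more than the genotypes did. On 1436790_a_at the knockout read 12.41, 10.93 and 10.90 and the wild type 12.10, 12.20 and 11.59. Knockout replicate 2 was the highest of all 6 arrays and the other 2 knockout arrays were the lowest. The difference was -0.55 (SE 0.45, 95% interval -1.65 to 0.55, limma's adjusted p = 0.611), and with each array left out it ran from -1.05 without knockout replicate 2 to -0.29 without knockout replicate 5. On 1453125_at the knockout read 12.15, 11.10 and 11.15 and the wild type 11.41, 11.87 and 11.07, with a difference of 0.02 (SE 0.35) that ran from -0.32 without knockout replicate 2 to 0.23 without wild-type replicate 4. Knockout replicate 2 was also the array with the highest level of Col3a1, a collagen of meninges and mesenchyme, at 8.10 against 4.04 to 6.20 on the others. Of the 7 meningeal markers fixed, only Col3a1 and Foxd1 passed the filter, and only Col3a1 was high on that array: Foxd1 read 6.15 there, within its range of 5.64 to 6.52 on the other 5. The mean of the pair was 7.13 on knockout replicate 2 and 5.00 to 6.01 on the others, and Col1a1, Col1a2, Dcn, Lum and Foxc1 were below the filter. The mean of all 6 Sox11 probe sets differed by -0.12 (SE 0.13, 95% interval -0.44 to 0.21). The part of the collagen signal of that array in the Sox11 values was not tested.

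Sox12, the SoxC member with the weakest activity and little effect of its own when lost in mice, had 2 kept probe sets that went opposite ways. The probe set 1455562_at read 6.99, 7.10 and 6.83 in the knockout and 7.89, 7.03 and 7.03 in the wild type. Wild-type replicate 1 alone was high, and the difference of -0.34 (SE 0.25, 95% interval -0.97 to 0.28, limma's adjusted p = 0.582) was -0.06 without it. The probe set 1439754_at read 6.34, 6.74 and 6.71 against 6.24, 6.41 and 6.66. Here wild-type replicate 1 was the lowest array, and the difference was 0.16 (SE 0.16, 95% interval -0.23 to 0.55, limma's adjusted p = 0.665), and 0.06 without that array and 0.29 without knockout replicate 2.

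The progenitor and neuronal Sox genes were then set against each other within each array, as the mean of the brightest probe sets of Sox1, Sox2 and Sox3 and the mean of those of Sox4, Sox11 and Sox12. The SoxB1 mean was 10.00, 9.99 and 9.79 in the knockout and 9.86, 9.95 and 9.88 in the wild type. The groups overlapped, and their difference of 0.03 was smaller than the spread between replicates (pooled SD 0.09). The SoxC mean was 10.95, 10.98 and 10.88 in the knockout and 11.27, 10.94 and 11.11 in the wild type, a difference of -0.17 (pooled SD 0.12). Wild-type replicate 4 lay inside the knockout range, and wild-type replicate 1 lay highest. At the probe sets averaged, Sox4 differed by 0.02, Sox11 by -0.18 and Sox12 by -0.34. The Sox11 difference was -0.03 without wild-type replicate 5, and that of Sox12 was -0.06 without wild-type replicate 1. At these brightest probe sets, the SoxC difference was thus not shared by its genes beyond single arrays. Averaged over all kept probe sets of each gene, Sox4 differed by -0.24 (SE 0.13), Sox11 by -0.12 (SE 0.13) and Sox12 by -0.09 (SE 0.11). Those averages were all lower in the knockout, none past the adjusted threshold, so the picture depends on the probe sets taken.

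The SoxB1 mean minus the SoxC mean was 0.20 higher in the knockout, with a pooled SD of 0.16 and overlapping groups. Relative to the mean of the 6 arrays it was 0.17, 0.11 and 0.02 on the knockout arrays and -0.29, 0.12 and -0.12 on the wild-type arrays. The direction was the same when each array was left out in turn, from 0.10 without wild-type replicate 1 to 0.30 without wild-type replicate 4. Taking the mean of all kept probe sets of each gene in place of the brightest also gave 0.20, but from other parts. SoxB1 then differed by 0.05 and SoxC by -0.15. Sox4 stood at -0.24 in place of 0.02, and Sox12 at -0.09 in place of -0.34. Sox1 stood at 0.00 in place of -0.08, through its dim probe set. At the brightest probe sets, the SoxC difference without wild-type replicate 1 was -0.09. No test was made on these means.

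Beside these means, the wild-type array that stood apart was also high for early neuronal genes and low for cell cycle genes. Relative to the mean of the 6 arrays, wild-type replicate 1 was 0.20 for the list of early neuronal genes, where the other 5 lay between -0.08 and 0.01. For cell cycle genes it was -0.19, with the others between -0.01 and 0.15. For proneural and commitment genes it was -0.18, with the others between -0.10 and 0.12. For the list of neural progenitor genes all 6 arrays lay between -0.03 and 0.05. Of the probe sets in the SoxC mean, only that of Sox12 was high on wild-type replicate 1, at 7.89 against 6.83 to 7.10 on the others. Those of Sox4 (13.18) and Sox11 (12.72) lay within the range of the other arrays. The second Sox12 probe set was lowest on that array, at 6.24. The part of the neuronal and cell cycle levels of this array in the SoxC difference was not tested.

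**Figure D3:**
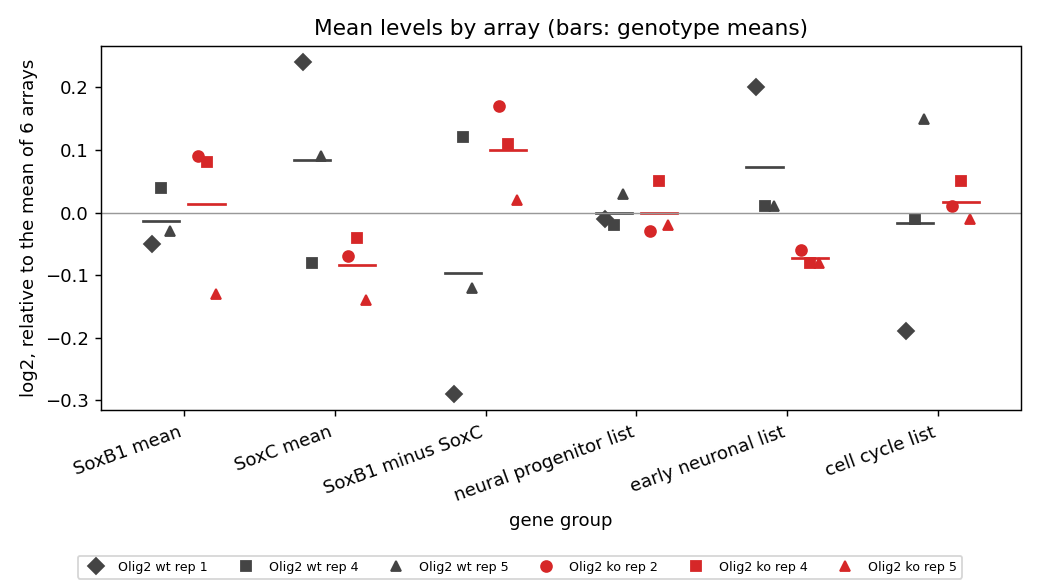
Mean log2 levels per array, relative to the mean of the 6 arrays, are shown for SoxB1, SoxC, their difference and 3 gene lists. Wild-type replicate 1 (diamond) lies at 0.24 for SoxC and 0.20 for early neuronal genes, and at -0.19 for cell cycle genes. Of the SoxC probe sets averaged, only that of Sox12 was high on that array.

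Genes that work with the Sox factors were counted by the brightest kept probe set of each gene. Over all 10630 genes, 0% passed the adjusted threshold in limma, 7.9% had an unadjusted p below 0.05, 50.6% were lower, and genotypes were fully separated for 8.45% (higher) and 7.96% (lower). Of 19 neural progenitor genes, which include SoxB1 partners of the POU family and Notch targets, 10 were higher and 9 lower, with a median of 0.01 (7 higher and 12 lower without wild-type replicate 1). The genotypes were separated for 4 higher genes and 1 lower one, and 3 had an unadjusted p below 0.05. The Notch target Hes1 read 5.93, 6.27 and 5.89 in the knockout and 5.63, 5.70 and 5.56 in the wild type, a difference of 0.40 (SE 0.12). Notch1, its upstream receptor, differed by -0.43 (SE 0.17) and by -0.64 at a second probe set, and the helix-loop-helix inhibitor Id4 by -0.24 (SE 0.09), with other Id4 probe sets at -0.08 and 0.13. Vim, an intermediate filament gene of radial glia, differed by 0.18 (SE 0.08), and by -0.10 and 0.00 at its other probe sets. None passed (limma's adjusted p = 0.511 for these 4).

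More of the early neuronal genes were lower than higher at their brightest probe sets. Among the 16 genes kept, 14 were lower and 2 higher, with a median of -0.10 against 0.00 over all genes, and the groups did not overlap for 3, all lower. The named members, those of lowest p, were the neurofilament-type gene Ina at -0.60 (SE 0.20), the microtubule gene Mapt at -0.56 (SE 0.25), and Crmp1 and Dpysl3, both of the collapsin response mediator family, at -0.24 (SE 0.14) and -0.23 (SE 0.14). Other probe sets were at -0.38 and -0.56 for Ina, at 0.02, -0.25 and -0.11 for Mapt, and at -0.69 and 0.54 for Dpysl3, so those of Mapt and Dpysl3 did not all go one way. Wild-type replicate 1 was the highest array for all 4, and without it 11 of the 16 were lower and 5 higher, with a median of -0.06. Limma's adjusted p was 0.511 to 0.544. Tubb3, a neuronal tubulin that SoxC factors activate, was named for that role after its value was seen and differed by -0.02 (SE 0.12), with the groups overlapping.

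The proneural and commitment genes, which stand between the progenitor and the neuronal state, showed no common direction. Among the 13 genes kept, 5 were higher and 8 lower, with a median of -0.02. Tead2, a transcription factor of the Hippo pathway, read 8.08, 8.14 and 8.02 in the knockout and 8.37, 8.19 and 8.29 in the wild type. Its groups did not overlap, and the difference was -0.20 (SE 0.08, limma's adjusted p = 0.511). The antiproliferative gene Btg2 differed by 0.74 (SE 0.41), with wild-type replicate 1 lowest at 5.97, and by 0.00 at a second probe set. Neurog2, a proneural factor, differed by -0.37 (SE 0.21) and Mfng, a modifier of Notch, by -0.24 (SE 0.16). Of 17 cell cycle genes, 9 were higher and 8 lower, with a median of 0.07. Without wild-type replicate 1 that turned to 4 higher and 13 lower, with a median of -0.06. The replication gene Mcm4 was the member of lowest p there, at 0.40 and at 0.13 on a second probe set, with limma's adjusted p = 0.511 for the first.

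**Figure D4:**
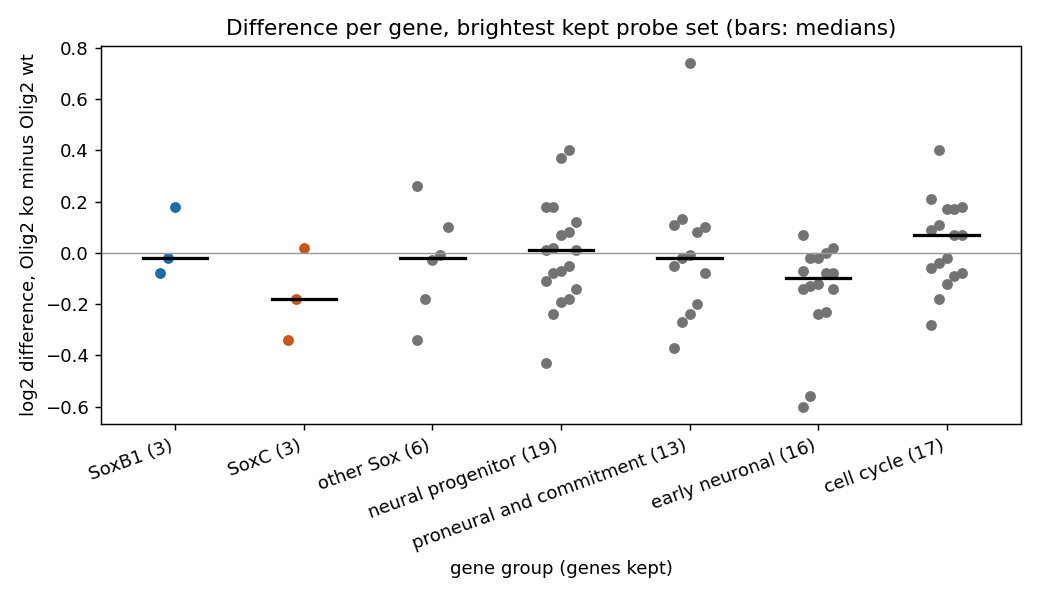
Each point is the log2 difference (Olig2 ko minus Olig2 wt) of a gene at its brightest kept probe set, and bars are medians, for SoxB1, SoxC and 5 lists. The medians are -0.02 for SoxB1, -0.18 for SoxC, 0.01 for neural progenitor genes and -0.10 for early neuronal genes.

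The Sox genes outside SoxB and SoxC were mostly dim. Of 12, all had a named probe set and 6 were kept, with 2 higher and 4 lower in the knockout and a median of -0.02. Sox13, a SoxD gene, read 4.21, 4.18 and 4.42 in the knockout and 4.57, 4.54 and 4.71 in the wild type. Its groups did not overlap, with a difference of -0.34 (SE 0.10, limma's adjusted p = 0.511). Sox5, another SoxD gene and a regulator of neuronal differentiation, differed by 0.26 (SE 0.11), and by -0.17, -0.17 and 0.04 at its other probe sets. Sox9, the SoxE gene of radial glia and the gliogenic switch, differed by -0.18 (SE 0.15), and by -0.03 and 0.01 at its other probe sets, and Sox18, of endothelium, by 0.10 (SE 0.08). Sox10, the SoxE gene of the oligodendrocyte lineage, was below the filter.

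The genes whose levels over the 6 arrays most resembled the subfamily means were found among 3986 genes outside the members whose range was at least 0.5. For SoxB1 they were Hspe1 (Pearson r = 0.923), Ifitm2 (0.92) and Id1 (0.916), and for SoxC they were Dcaf7 (0.996), Otp (0.995) and Lrp3 (0.994). These values describe 6 arrays that include both genotypes and share 1 normalization. As the highest of 3986 genes over so few arrays, they do not show a relation to the Sox genes. The SoxC mean was highest on wild-type replicate 1, at 11.27 against 10.88 to 11.11 on the others.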

How the data were processed

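The values are the log2 expression values per probe set that the authors deposited for 6 arrays. Per the series design text and the submitters' processing notes, images were processed with GCOS and MAS5, and GCRMA applied background correction, quantile normalization and the log2 scale; the notes name no versions. GCRMA leaves a floor at 2.27 and compresses differences near it, and bright probe sets can be compressed by saturation. Probe sets were named from the platform annotation (34945 with 1 symbol) and 64 AFFX controls were left out. Genotype and replicate came from the sample titles.

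The filter (above the array median on at least 3 arrays) kept 22565 of 45037 probe sets. Genotypes were compared with limma 3.58.1 in R 4.3.3 (lmFit, eBayes, two-sided), p-values being adjusted by Benjamini-Hochberg over all 22565 and called at 0.05; the step was tested on simulated data. Both genotypes have replicates 4 and 5, but nothing in the labels ties a number to a litter or day, so no block was used. Subfamily means took the brightest probe set of each gene. The members and gene lists were chosen with earlier results of these data known. Named genes were all members, up to 4 of lowest p per list, and 3 most alike per subfamily. Direction counts without wild-type replicate 1 or knockout replicate 2 were added after seeing the data. Alternatives were other filters, normalizations, array weights, variance models, the replicate number as a block, probe sets averaged per gene, and arrays left out.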

Additional observations from a re-analysis of the deposited data

How the results depend on the processing

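No probe set, member or other, passed limma's adjusted threshold of 0.05 under any of the 15 alternatives run, and at unadjusted p below 0.05 the count was 2121 over all 6 arrays, 963 of 10630 genes with probe sets averaged per gene, 3491 with array weights, 3276 with wild-type replicate 4 and knockout replicate 2 both left out, and 1121 to 3490 with each array left out. The lower pair of Sox4 probe sets and the brighter one of Sox21 kept their direction in the 14 that kept probe sets apart. Small differences changed sign: the brightest Sox4 probe set was -0.01 with repeated quantile normalization (Sox4 averaged over probe sets, -0.24) and -0.03 to 0.07 with each array left out, Sox2 was 0.01 with array weights and -0.07 to 0.04 with arrays left out, and Sox1 was -0.17 to 0.03 with arrays left out. With each array left out the SoxB1 mean difference was -0.01 to 0.10 and that of SoxC -0.25 to -0.09. Without knockout replicate 2, 7 members were higher and 13 lower.

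With the replicate number as a block, which rests on the pairs numbered 4 and 5, the SoxB1 minus SoxC difference was 0.06, that of SoxB1 -0.03 and that of SoxC -0.09, the block called 0 probe sets and 2014 had an unadjusted p below 0.05. Deviations from the genotype mean correlated at -0.292 for number 4 and 0.32 for number 5, and at -0.356 to 0.379 between unlike numbers. Deviations within a genotype are tied to each other through its mean. These values therefore cannot decide whether arrays of the same number shared a litter or day. Floor values limit Sox14, and the number of arrays limits every interval.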
